A study of Mus musculus with 12 samples.

Results

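The 32 genes described here were listed as acting in DNA repair or in the transcriptional response to the tumor suppressor p53. They were taken as a fixed list of names, and for each name the brightest probe set that carries a single symbol was used, by its mean over 12 tumors, which found all 32 members among 18193 genes. Of these, 24 act in damage signalling or repair and 8 were listed as p53 response members.

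Affymetrix MG-430_2.0 microarrays were hybridized with RNA of 9 pancreatic tumors and 3 pituitary tumors, 1 array per tumor. All tumors arose in LSL-MYCN;hGFAP-Cre mice, in which Cre recombinase under the human GFAP promoter opens a MYCN transgene, so no group here lacks the transgene. The mice had a mixed background of several strains, and the tumors were untreated. The labels call the pituitary tumors brain tumors, and the paper places them at the pituitary gland. Some of these mice carry tumors at both sites, and the sources used here give neither the tumors that share a mouse nor the age at which each tumor was taken. Tumors are numbered as in the labels, with 6, 7 and 8 from the pituitary. P-values measure the spread between these tumors, whose number limits the precision. All tumors were treated as independent, which tumors of the same mouse would not be.

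Cells answer broken or damaged DNA through kinases that sense the lesion and pass the signal on, and through dedicated pathways for each kind of lesion. Double-strand breaks are repaired by homologous recombination or end joining, small base lesions by base excision repair, bulky adducts by nucleotide excision repair, and replication errors by mismatch repair. The transcription factor p53 is activated by the same kinases and raises genes that arrest the cycle, limit growth or promote cell death, and many repair genes are expressed most strongly in dividing cells.

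All values are log2 signals. The median probe set of an array, taken here as background, lay between 5.45 and 5.69. Of the 32 members, 27 were above the array median in all 12 tumors, against 52.2% of all genes, the exceptions being Chek1, Chek2, Brca1, Blm and Fancd2. Anterior pituitary markers were higher in the 3 pituitary tumors for the 3 measured genes of 6, with list scores of 1.71 to 4.09 against -1.22 to -0.78 in the pancreatic tumors, each score being the mean of signals centred over the 12 tumors. The endocrine pancreas score was -3.71 to -2.99 in the pituitary and -1.03 to 2.16 in the pancreatic tumors. The lowest pancreatic score was that of pancreatic tumor 2, where Pdx1 was 6.61 and Isl1 8.76, and where the liver transcripts Alb and Apoa1 stood at 15.01 and 14.63. Pituitary tumors 6 and 8 had astrocyte scores of 4.44 and 3.94, and pituitary tumor 7 had 0.74, against at most 0.32 in the pancreatic tumors. In bulk tissue, fewer cells of a type and less RNA per cell cannot be told apart.

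**Figure D1:**
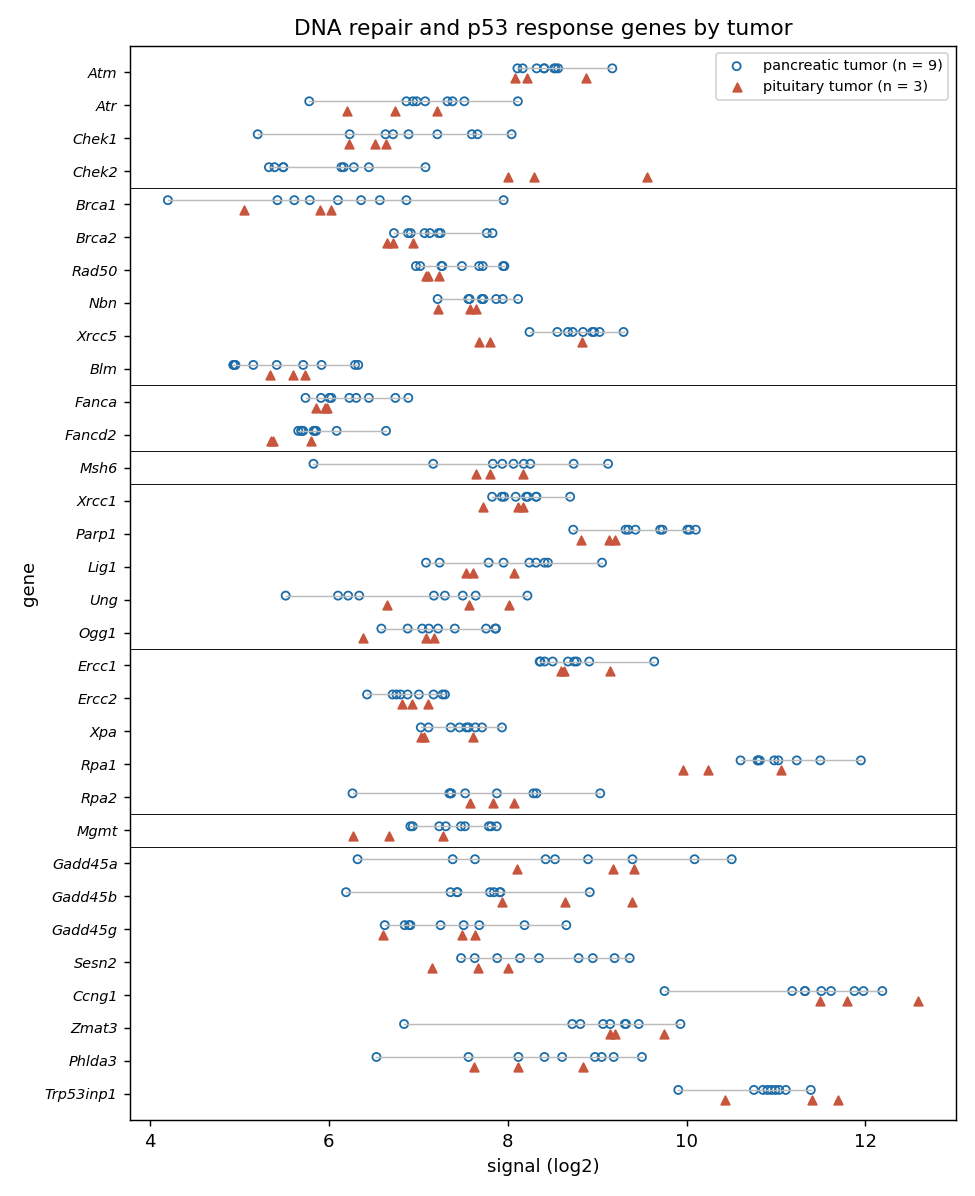
Log2 signal of each member on the x axis for 9 pancreatic (open circles) and 3 pituitary (triangles) tumors, with genes on the y axis ordered by role and lines spanning the pancreatic range. Chek2 is the only member whose groups do not overlap, with pituitary values from 8.00 and pancreatic values up to 7.08.

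The first comparison asked which members differ by tumor site. The one difference past the threshold was that of Chek2, a checkpoint kinase activated by the double-strand break kinase Atm, which was higher in the pituitary tumors. Between the sites 0 of 32 members were higher in the pancreatic tumors (background 1.63% of all genes) and 1 was higher in the pituitary tumors (background 4.29%) at an adjusted p below 0.05 in limma. Both shares lie near what all genes gave, so the count is no result about the list.

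Chek2 was 5.33 at the lowest, 6.14 at the median and 7.08 at the highest in the 9 pancreatic tumors, and 8.30, 9.56 and 8.00 in pituitary tumors 6, 7 and 8. Each pituitary value exceeded every pancreatic value, and such separation toward the pituitary was found in 5.21% of all genes. In the other direction 0 members separated, against 4.21% of all genes. The means were 5.98 ± 0.59 (SD, n = 9) and 8.62 ± 0.83 (SD, n = 3), a difference of -2.64 with a standard error of 0.40 and a limma adjusted p of 0.00277. In linear terms the pituitary mean was 6.24-fold higher. The single probe set was at or below the array median in 3 pancreatic tumors, so the size of the difference can be a lower bound. The highest value, 9.56, was that of pituitary tumor 7, which had the lowest astrocyte, neuron and oligodendrocyte scores of the 3 (0.74, 0.45 and -0.53). The proliferation scores of the pituitary tumors, -0.48 to -0.22, lay within the pancreatic range of -1.14 to 0.88. The part of cell types or of proliferation in the Chek2 values was not tested.

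The promoter of Chek2 is shown because it is the member that differs by site, and those of Brca1, Blm and Rpa2 because these genes had the clearest correlations with the proliferation score once its farthest tumors were left out. The sequences are the 250 bases before a start site that RefSeq's promoter table lists in GRCm38.p6, for 27 members that have an entry. That site need not be the outermost start of the gene: for Brca1 and Rpa2 it is, but for Chek2 the last 183 bases of the window, and for Blm the last 150, lie inside the gene's annotated span, the E2F motif of Chek2 included. They are written 5′ to 3′ on the gene's strand, with capitals marking an E2F motif (TTTCCCGC, TTTGGCGC, TTTCGCGC or TTTGCCGC) or a CCAAT box, on either strand.
Chek2, chr5:110839733-110839982, plus strand: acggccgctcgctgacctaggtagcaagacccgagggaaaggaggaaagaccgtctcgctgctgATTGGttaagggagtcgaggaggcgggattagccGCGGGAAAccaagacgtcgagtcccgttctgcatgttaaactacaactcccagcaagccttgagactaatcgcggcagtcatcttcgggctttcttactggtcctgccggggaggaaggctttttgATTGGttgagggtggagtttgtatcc
Brca1, chr11:101551956-101552205, minus strand: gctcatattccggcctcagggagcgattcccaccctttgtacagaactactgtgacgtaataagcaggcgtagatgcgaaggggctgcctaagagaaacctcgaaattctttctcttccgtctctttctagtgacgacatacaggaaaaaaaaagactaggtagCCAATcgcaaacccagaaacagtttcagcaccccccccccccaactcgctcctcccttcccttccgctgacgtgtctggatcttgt
Blm, chr7:80534999-80535248, minus strand: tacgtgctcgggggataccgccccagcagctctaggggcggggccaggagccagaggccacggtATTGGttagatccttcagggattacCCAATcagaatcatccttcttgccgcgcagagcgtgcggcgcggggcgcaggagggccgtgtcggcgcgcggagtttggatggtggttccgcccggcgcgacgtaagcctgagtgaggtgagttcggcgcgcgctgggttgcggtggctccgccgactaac
Rpa2, chr4:132768110-132768359, plus strand: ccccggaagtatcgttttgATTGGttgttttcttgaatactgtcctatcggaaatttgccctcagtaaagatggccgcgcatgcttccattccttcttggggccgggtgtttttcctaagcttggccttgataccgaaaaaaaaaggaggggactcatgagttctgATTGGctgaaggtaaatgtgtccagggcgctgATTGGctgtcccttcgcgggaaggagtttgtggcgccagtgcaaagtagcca

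An E2F motif was found in the windows of Chek2 and Brca2, and in 1.86% of 32851 promoters of the same length. The window of Brca2 lies wholly inside the annotated span of that gene. A CCAAT box was found in 18 of the 27 members and in 33.8% of all promoters. The motif TTTGAA, known from genes of the late cell cycle, was found in 0 members and in 16.0% of all promoters. A CACGTG E-box was found in 5 members (Gadd45b, Gadd45g, Parp1, Rpa1 and Xrcc5) and in 6.02% of all promoters. A full p53 response element was found in 0 members and in 0.0639% of all promoters, and a single p53 half-site in 3 members (Ccng1, Fanca and Gadd45a) and in 7.13%. A match describes the letters of these windows only.

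The other 31 members did not pass the threshold, and 30 of 32 differed by less than 1 on the log2 scale. The mean was higher in the pancreatic tumors for 21 members and lower for 11, with a median difference of 0.24, against 0.04 over all genes. By role, 18 of the 24 repair members had the higher mean in the pancreatic tumors (median difference 0.32, where 53.1% of all genes had it), and 3 of the 8 p53 response members did (median difference -0.31). At an unadjusted p below 0.05, 3 members were higher in the pancreatic tumors (Xrcc5, Mgmt and Rpa1, background 9.53%) and 2 were higher in the pituitary tumors (Chek2 and Gadd45b, background 14.0%).

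**Figure D2:**
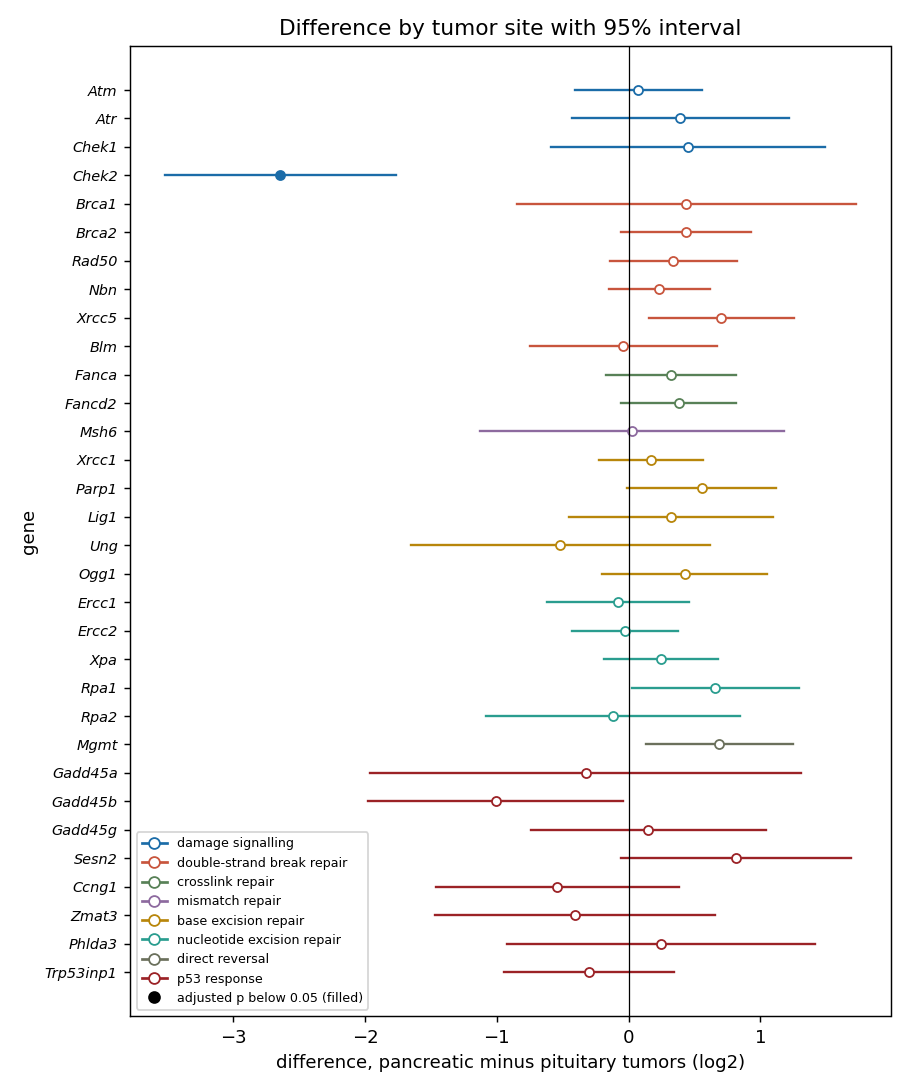
Difference of the mean log2 signal, pancreatic minus pituitary, for each member with its 95% interval and colored by role (9 pancreatic and 3 pituitary tumors). The interval of Chek2, -3.52 to -1.77, has the only filled point, and the other intervals cross 0 except those of Xrcc5, Rpa1, Mgmt and Gadd45b.

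Among the damage signalling kinases, Atm, which responds to double-strand breaks, and Atr, which responds to single-stranded DNA, differed by 0.08 and 0.39. Chek1, the kinase downstream of Atr, differed by 0.45, with an interval of -0.59 to 1.49. The values of these 3 kinases overlapped between the sites. In the double-strand break group, Xrcc5, the larger subunit of the Ku end-joining complex, was 8.24, 8.84 and 9.30 at the lowest, median and highest in the pancreatic tumors and 7.68, 8.83 and 7.81 in the pituitary tumors. Pituitary tumors 6 and 8 lay below all pancreatic tumors and pituitary tumor 7 among them. The difference was 0.70 with a standard error of 0.25 and a limma adjusted p of 0.147. It passed without pituitary tumor 7 (difference 1.07, limma adjusted p 0.0186), which left only the pituitary tumors below the pancreatic range. Pituitary tumors 6 and 8 had astrocyte scores of 4.44 and 3.94 and neuron scores of 2.85 and 2.95. Those of pituitary tumor 7 were 0.74 and 0.45. The part of cell types in the Xrcc5 values was not tested. The recombination genes Brca1 and Brca2 differed by 0.44 and 0.43, Rad50 and Nbn, which tether and signal broken ends, by 0.34 and 0.23, and the helicase Blm by -0.04.

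Mgmt, which removes alkyl groups from guanine directly, was 6.91, 7.48 and 7.88 at the lowest, median and highest in the pancreatic tumors and 6.27, 7.28 and 6.67 in the pituitary tumors. Again pituitary tumors 6 and 8 lay below the pancreatic range and tumor 7 within it. The difference was 0.69 with a standard error of 0.26 and a limma adjusted p of 0.157. The part of cell types in the Mgmt values was not tested either. The crosslink repair genes Fanca, of the Fanconi core complex, and Fancd2, its target, differed by 0.32 and 0.38, and the mismatch sensor Msh6 by 0.03.

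In base excision repair, Parp1, which senses strand breaks, differed by 0.55, the scaffold Xrcc1 by 0.17 and the ligase Lig1 by 0.32. The glycosylases Ung, which removes uracil, and Ogg1, which removes oxidized guanine, differed by -0.52 and 0.43. In nucleotide excision repair, the endonuclease subunit Ercc1 differed by -0.08, the helicase Ercc2 by -0.03 and the damage verifier Xpa by 0.25. Rpa1 and Rpa2, subunits of the complex that coats single-stranded DNA, differed by 0.66 and -0.12. Of these 10 genes 0 passed the threshold, and the groups overlapped for each.

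Of the p53 response members, Sesn2, a stress-induced inhibitor of growth signalling, was 7.48, 8.35 and 9.36 at the lowest, median and highest in the pancreatic tumors and 7.15, 8.00 and 7.66 in the pituitary tumors. Pituitary tumor 6 alone lay below the pancreatic range. The difference was 0.82 with a standard error of 0.40 and a limma adjusted p of 0.291.

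Gadd45b, a stress-induced regulator of kinase signalling, was 6.19, 7.80 and 8.92 in the pancreatic tumors and 7.94, 9.39 and 8.64 in the pituitary tumors. Only pituitary tumor 7 exceeded the pancreatic range. The difference was -1.01 with a standard error of 0.44 and a limma adjusted p of 0.238. Pituitary tumor 7 also had the highest score of immediate-early genes, 1.23 against -0.46 to 0.35 in the pancreatic tumors, and the part of these genes in the Gadd45b value was not tested.

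Ccng1, which encodes cyclin G1, was 9.75, 11.51 and 12.19 in the pancreatic tumors and 11.49, 12.59 and 11.79 in the pituitary tumors. The groups overlapped, the difference was -0.54, and the limma adjusted p was 0.516. Zmat3, an RNA-binding protein, differed by -0.41, Trp53inp1, which promotes cell death and autophagy, by -0.30, and the Akt inhibitor Phlda3 by 0.24. Gadd45a and Gadd45g, the relatives of Gadd45b, differed by -0.33 and 0.15.

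Of 18 members with several probe sets, the 33 further probe sets gave 0 calls, and 25 had the sign of the probe set used, but 14 of the 33 were at or below the array median in all 12 tumors. The further probe sets of Gadd45b differed by -1.27 and 0.06, against -1.01 for the probe set used. Those of Ccng1 differed by 0.37 and -0.12, against -0.54.

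Other genes of these pathways were described from lists that exclude the members. Of 68 measured genes of 78 in DNA repair, 0 passed the threshold in either direction, 4 were higher in the pancreatic and 3 in the pituitary tumors at an unadjusted p below 0.05 (background 9.53% and 14.0% of all genes), and the median difference was 0.15. Of 27 measured genes of 29 in the p53 response, 0 were higher in the pancreatic and 3 in the pituitary tumors at an adjusted p below 0.05 (background 1.63% and 4.29% of all genes), and 2 and 5 at an unadjusted p below 0.05 (background 9.53% and 14.0%), with a median difference of -0.12. These 3 were Rprm, a mediator of arrest in the second gap phase, the metabolic regulator Tigar and the apoptosome component Apaf1.

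Rprm was 4.75 to 5.29 in the pancreatic tumors, at or below the array median in all 9, and 8.37, 7.20 and 8.72 in the pituitary tumors. The groups did not overlap, and the limma adjusted p was 2.84e-05. Against the array medians of the pancreatic tumors, taken as the floor, Rprm was at least 5.90-fold higher in the pituitary tumors. Tigar was 5.85 to 6.92 in the pancreatic tumors and 8.98, 9.51 and 7.34 in the pituitary tumors, with a difference of -2.11 and a limma adjusted p of 0.00634. Apaf1 was 5.05 to 6.24 and 7.29, 6.45 and 7.20, with a difference of -1.17 and a limma adjusted p of 0.0264. Without pituitary tumor 6 the adjusted p was 0.0527 for Tigar and 0.162 for Apaf1, and without pituitary tumor 8 it was 0.149 for Apaf1. The p53 target Cdkn1a, which blocks the cell cycle, was 8.82 to 12.18 in the pancreatic and 8.30 to 11.26 in the pituitary tumors, and Mdm2, the ligase that degrades p53, was 8.41 to 10.13 and 9.29 to 9.63.

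The second question was how far the members vary among the 9 pancreatic tumors. The median SD of the members was 0.51, against 0.43 over all genes, and 18 of 32 members were above the latter. It was 0.41 for the repair members and 0.71 for the p53 response members. The largest SDs were those of Gadd45a (1.33), Brca1 (1.04), Msh6 (0.95), Phlda3 (0.93) and Ung (0.88). Gadd45a ranged from 6.32 in tumor 2 to 10.51 in tumor 11, Brca1 from 4.20 in tumor 5 to 7.95 in tumor 3, and Msh6 from 5.83 in tumor 5 to 9.12 in tumor 3. Ung ranged from 5.52 in tumor 12 to 8.22 in tumor 2.

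By Dixon's test at the 5% level, which looks for a single value far from the rest, a pancreatic tumor stood apart for 6 of the 32 members, against 16.2% of all genes: Atm (tumor 1), Fancd2 (tumor 3), Ercc1 (tumor 5), Trp53inp1 (tumor 9) and, at the low end in tumor 2, Ccng1 and Zmat3. Tumor 2 stood apart at the low end in 3.66% of all genes.

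Pancreatic tumor 2 was the lowest of the 9 in 5 of the 8 p53 response members, against 19.8% of all genes, and this tumor was singled out after its values were seen. Zmat3 was 6.84 in tumor 2 and 8.72 to 9.93 in the other 8 pancreatic tumors. Ccng1 was 9.75 against 11.18 to 12.19, and Phlda3 was 6.53 against 7.56 to 9.50. Tumor 2 therefore lay below every other tumor of either site for these 3 genes. Gadd45a was 6.32 against 7.38 to 10.51, and Sesn2 was 7.48 against 7.63 to 9.36. A second probe set of Sesn2 was also lowest in tumor 2, at 6.56 against 7.80 to 9.77. For Ccng1 the further probe sets did not separate tumor 2, with 8.49 against 7.39 to 10.30 and 7.86 against 7.84 to 10.74.

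The other p53 response members were not low in tumor 2. Trp53inp1 was highest there, at 11.39 against 9.91 to 11.11, and Gadd45b (7.44) and Gadd45g (7.51) lay within the range of the others. Among the other genes of the p53 response, tumor 2 was lowest in 7 of 27, near the share of 19.8% over all genes. These include Rrm2b, a ribonucleotide reductase subunit, at 6.55 against 8.41 to 9.61. Cdkn1a (9.79) and Mdm2 (8.93) were not lowest there, but lay below the pancreatic medians of 10.73 and 9.59. Only tumor 1 was lower for Cdkn1a (8.82), and only tumor 5 for Mdm2 (8.41). Among the repair members it was highest in 8 of 24, including Atr (8.11), Chek1 (8.04), Nbn (8.12) and Ung (8.22), and over all members in 9 of 32, against 22.6% of all genes.

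The score of the hepatocyte markers Alb and Apoa1, centred over the pancreatic tumors, was 5.29 in tumor 2, 3.09 in tumor 3, 3.36 in tumor 4, 1.52 in tumor 11 and -3.68 to -0.30 in the others. Tumors 3 and 4 had Zmat3 at 9.32 and 9.31 and Ccng1 at 11.18 and 11.88, within or near the range of the remaining tumors. They differ from tumor 2 in endocrine markers too. Isl1 was 11.44 and 12.04 in tumors 3 and 4 and 8.76 in tumor 2, and Neurod1 was 11.16 and 11.38 against 7.52. The parts of liver RNA and of lower endocrine signal in the values of tumor 2 were not tested.

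**Figure D3:**
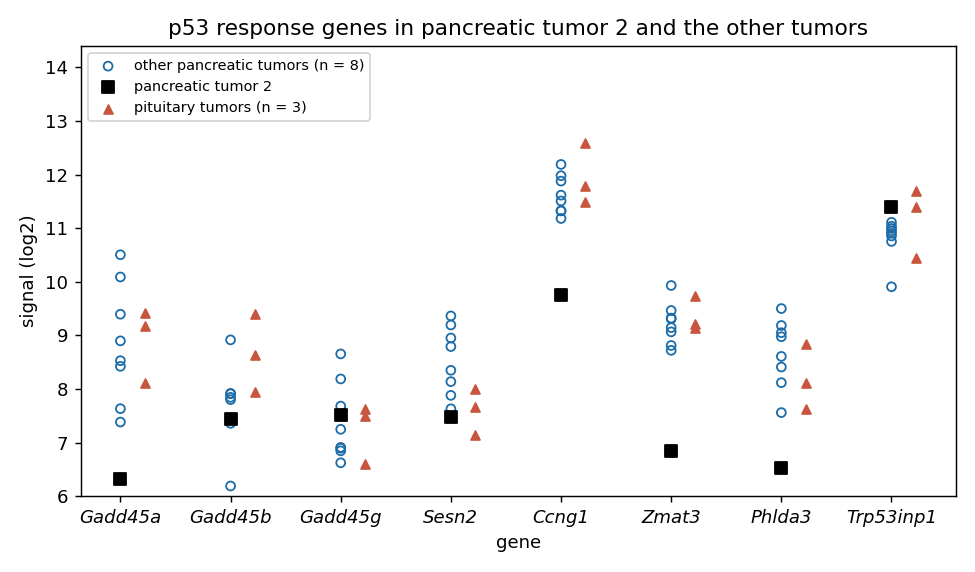
Log2 signal of the 8 p53 response members (x axis) in pancreatic tumor 2 (squares), the other 8 pancreatic tumors (circles) and the 3 pituitary tumors (triangles). Tumor 2 lies below all other tumors for Gadd45a, Ccng1, Zmat3 and Phlda3, and above the other pancreatic tumors for Trp53inp1.

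Proliferation was summarised by a score of 19 measured genes that hold no member, such as Mki67 and Top2a, and related to each member over the 9 pancreatic tumors. The score ran from -1.27 in tumor 10 and -0.97 in tumor 5 to 0.73 in tumor 2 and 0.76 in tumor 3. Not every gene of the list followed it. Mki67 was lowest in tumor 10 (6.76) and highest in tumor 3 (9.49). Tpx2 was highest in tumors 10 (6.84) and 5 (6.31) and lowest in tumor 3 (5.38), and Foxm1 only ran from 6.39 to 6.83. Of 32 relations 0 passed an adjusted p below 0.05 (background 0%), with a lowest adjusted p of 0.224. At an unadjusted exact permutation p below 0.05, two-sided, 10 members had a positive correlation with the score, against 7.09% of all genes, and 0 had a negative one, against 2.49%. All 10 were repair members: Lig1, Nbn, Blm, Brca1, Rpa2, Msh6, Parp1, Xrcc1, Chek2 and Chek1. Over all members 24 correlations were positive, with a median r of 0.42. No such share or median over all genes was taken, so these values are no result about the list.

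Lig1, which joins Okazaki fragments, was 7.09 in tumor 10 and 7.24 in tumor 5, 7.79 to 8.45 in 6 tumors, and 9.05 in tumor 3. Its Pearson r was 0.908 (exact permutation p = 0.000865, adjusted p = 0.224) and its Spearman rho 0.917 (exact permutation p = 0.00131, adjusted p = 0.188). Without tumors 5 and 10, the 2 farthest from the median score, r was 0.689.

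Brca1, which was at or below the array median in 2 pancreatic tumors, had an r of 0.842 (exact permutation p = 0.00173, adjusted p = 0.275) and a rho of 0.983 (exact permutation p = 4.96e-05, adjusted p = 0.0971), and without tumors 5 and 10 r was 0.832. Rpa2 was lowest in tumor 5, at 6.26, and highest in tumor 3, at 9.03. It had an r of 0.812 (exact permutation p = 0.00545, adjusted p = 0.412) and a rho of 0.967 (exact permutation p = 0.000165, adjusted p = 0.108), and 0.850 without tumors 5 and 10. These genes were lowest in tumors with low scores and highest in tumor 3.

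Blm, which ran from 4.93 to 6.33 and was at or below the array median in 5 pancreatic tumors, had an r of 0.847 (exact permutation p = 0.00480, adjusted p = 0.402), a rho of 0.833 (exact permutation p = 0.00827, adjusted p = 0.326) and 0.875 without tumors 5 and 10. Nbn, from 7.22 to 8.12, had an r of 0.856 (exact permutation p = 0.00158, adjusted p = 0.266), a rho of 0.817 (exact permutation p = 0.0108, adjusted p = 0.352) and 0.694 without them. The other 5 had an r of 0.690 to 0.764. For Chek1 (0.329) and Msh6 (0.378) r was below 0.4 once tumors 5 and 10 were left out, which also narrows the range of the score. Without tumors 10 to 12 r was 0.809 for Chek1 and 0.847 for Msh6. Without the 2 farthest tumors 3 members (Brca1, Blm and Rpa2) had a positive correlation at an unadjusted p below 0.05 and 1, Atm, a negative one (r -0.796, exact permutation p = 0.0383, adjusted p = 0.672, against 0.004 over all 9 tumors). Without pancreatic tumors 2, 3 and 4 there were 4 positive (Brca1, Nbn, Parp1 and Lig1) and 0 negative ones.

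The hepatocyte markers moved with the proliferation score. Tumors 2, 3, 4 and 11 had the 4 highest scores of both lists, at 0.22 to 0.76 for proliferation and 1.52 to 5.29 for the hepatocyte markers, and tumor 10 had the lowest of both, at -1.27 and -3.68. The score of 5 measured acinar cell markers was 4.63 in tumor 3 and 3.76 in tumor 4, and -2.79 to 1.39 in the others. The parts of liver and acinar RNA in these correlations were not tested.

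The p53 response members had an r of -0.35 for Ccng1, -0.34 for Sesn2, -0.21 for Phlda3, -0.12 for Zmat3, 0.003 for Trp53inp1, 0.10 for Gadd45g, 0.19 for Gadd45b and 0.22 for Gadd45a. The difference between repair and p53 response members in this relation was not tested. Xpa (-0.41) had the lowest r of all members.

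**Figure D4:**
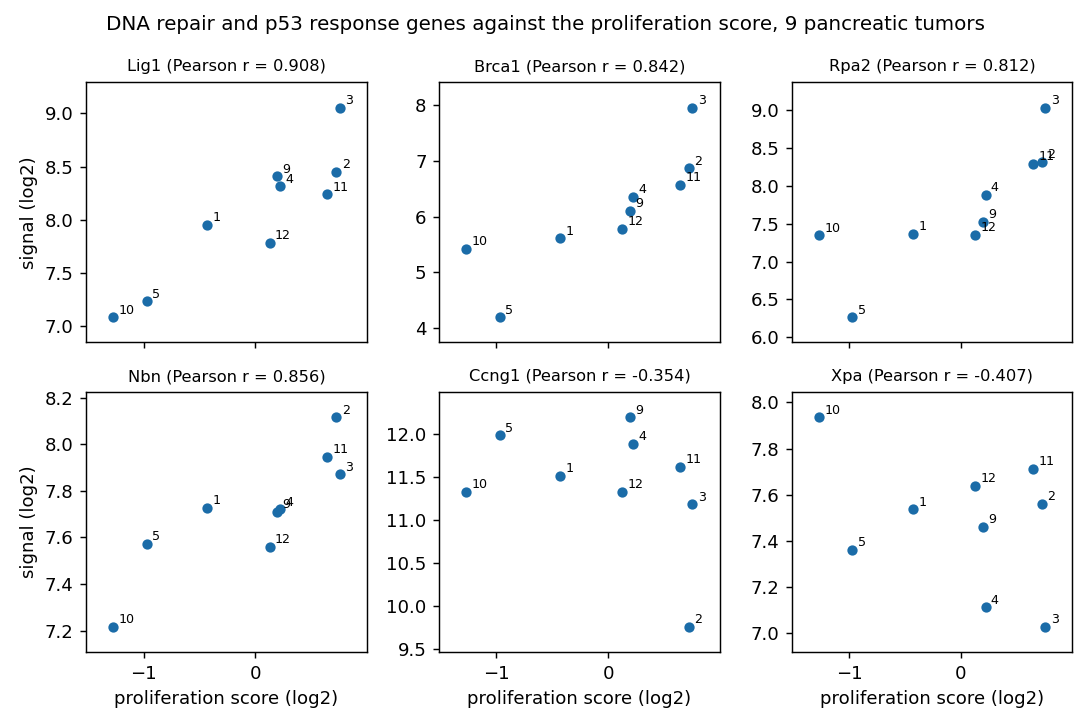
Log2 signal of 6 members (y axes) against the proliferation score (x axis, mean of log2 signals centred over the pancreatic tumors), 1 numbered point for each of 9 pancreatic tumors. Lig1, Brca1, Rpa2 and Nbn have an r of 0.812 to 0.908, and Ccng1 and Xpa, the members with the lowest r, -0.354 and -0.407.

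With a score of 13 immediate-early genes, which rise within minutes of stimulation or tissue handling, 0 of 32 members passed the adjusted threshold (background 0%). At an unadjusted p below 0.05, 0 had a positive correlation (background 1.43%) and 1, Nbn, had a negative one (background 0.934%), with an r of -0.694 and an exact permutation p of 0.0369.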

How the data were processed

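Total RNA of 9 pancreatic and 3 pituitary tumors was hybridized to Affymetrix MG-430_2.0 microarrays. The authors deposited a table of log2 signals, already normalized between arrays. Partek Genomics Suite and RMA are both named in the methods, without saying which gave this table. No further normalization was applied. Arrays of normal pancreas were not analysed here.

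Of 45101 probe sets, 64 controls were left out. Of 45037 tested, 34945 carried 1 symbol, 932 several and 9160 none. Sites were compared in limma 3.58.1 (R 4.3.3; lmFit, then eBayes), adjusted after Benjamini-Hochberg over all probe sets at 0.05. Counts over genes use the probe set with the highest mean. Correlations were tested over all 362880 pairings of 9 tumors. Other steps ran in Python 3.11.15 with pandas 2.3.3, numpy 2.4.6, matplotlib 3.10.9 and scipy 1.17.1. Promoters are from RefSeq.

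The members, lists and alternatives were chosen with earlier results of these data known. Each member is named at least once. Values per tumor are given for members past the threshold, the 3 with the largest difference in each direction, those with the largest SD, and those with a tumor that stands apart, and for other pathway genes past the threshold. Levels were not ranked between genes, since probe sets differ in affinity.

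On simulated data for the comparison of the sites over 45037 probe sets, 50 changed at each size, the fit made 6 false calls and found 0 of those with a log2 difference of 0.5, 21 of those with 1, 31 with 2 and 49 with 4. Array weights, median centring, quantile normalization, a trended, robust variance, the unmoderated test, a filter at the median mean signal, the mean of all probe sets, each tumor left out singly, and pancreatic tumors 10 to 12 or 2 to 4 left out were tried as alternatives. For the correlations, leaving out tumors 2 to 4 was added after seeing the data.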

Additional observations from a re-analysis of the deposited data

Results flagged for a closer look

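Dixon's test at the 5% level found a pancreatic tumor standing apart for 6 of the 32 members. Chance gives about 1 in 20 groups, and among all genes 16.2% had such a tumor. Ccng1 was 9.75 in tumor 2, where the other 8 pancreatic tumors lay between 11.18 and 12.19. Zmat3 was 6.84 in tumor 2, against 8.72 to 9.93. Atm was 9.17 in tumor 1, against 8.11 to 8.56, and Fancd2 was 6.64 in tumor 3, against 5.66 to 6.09. Ercc1 was 9.64 in tumor 5, against 8.36 to 8.91, and Trp53inp1 was 9.91 in tumor 9, against 10.75 to 11.39. Tumor 2 stood apart at the low end in 3.66% of all genes.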

How the results depend on the processing

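Chek2 passed the threshold under all 21 alternatives, with a difference of -2.95 to -2.17 and a limma adjusted p of 0.000418 to 0.0303. Over the other 31 members, 3 of 650 values under the alternatives passed: Xrcc5 with array weights (0.82, adjusted p 0.0346) and without pituitary tumor 7 (1.07, adjusted p 0.0186), and Mgmt with array weights (0.90, adjusted p 0.0304). Array weights thus gave 2 members and 2 other p53 genes higher in the pancreatic tumors and 1 other repair gene, and 1849 and 3179 probe sets higher in the pancreatic and pituitary tumors, against 533 and 1552 otherwise. For the pituitary the unmoderated test gave 967 of 45037 probe sets, and a filter at the median mean signal, which left 22518 to test, gave 926. Without pancreatic tumors 10 to 12 there were 214 and 571 probe sets, and 1 other p53 gene higher in the pituitary tumors, Tigar and Apaf1 then having adjusted p of 0.0513 and 0.0900. Apaf1 was also lost with quantile normalization (0.0520), the unmoderated test (0.0506) and without tumors 2 to 4 (0.0542).

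Leaving out 1 tumor gave 0 to 1 members higher in the pancreatic tumors, 0 to 1 and 1 to 3 other p53 genes higher in the pancreatic and pituitary tumors, and 172 (without pituitary tumor 6) to 886 (without pancreatic tumor 2) and 656 (without pituitary tumor 6) to 2000 (without pituitary tumor 7) probe sets. The count of members with a positive correlation with the proliferation score at an unadjusted p was 6 (without tumor 5) to 11, 3 without the 2 farthest tumors and 4 without tumors 2 to 4.

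The sign turned for 11 members, none past the threshold. Without pancreatic tumors 2 to 4, Brca1 was -0.0426, Msh6 -0.28 and Gadd45g -0.0475. With quantile normalization, Blm was 0.0062, Ercc1 0.0746, Ercc2 0.12 and Rpa2 0.013. With median centring, Blm was 0.0028 and Ercc2 0.0155. With array weights, Ercc1 was 0.0106 and Gadd45a 0.11. With the mean of all probe sets, Ercc2 was 0.105, Rpa2 0.0592 and Trp53inp1 0.0755. Without tumors 10 to 12, Ercc1 was 0.0636 and Phlda3 -0.16. Leaving out 1 tumor, Atm ranged from -0.0799 to 0.32, Blm from -0.15 to 0.0471, Msh6 from -0.12 to 0.29, Ercc1 from -0.19 to 0.10, Ercc2 from -0.0963 to 0.0535, Rpa2 from -0.28 to 0.0638, Gadd45g from -0.17 to 0.34 and Phlda3 from -0.0393 to 0.57. The cause was not tested. No paired analysis was possible because the sources used here do not say which tumors share a mouse. With 3 pituitary tumors, a difference of 0.5 was out of reach in the simulated data.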
